A study of Mus musculus with 138 samples.

Results

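The genes described are 6 CC chemokines and 2 of their receptors: the eotaxins Ccl11 and Ccl24, the monocyte chemoattractants Ccl2, Ccl7, Ccl8 and Ccl12, the eotaxin receptor Ccr3 and the monocyte receptor Ccr2. They were chosen by name, as every probe whose target name in the scanner table is CCL11, CCL24, CCL2, CCL7, CCL8, CCL12, CCR3 or CCR2, which gave 11 of the 45281 probes on the array. Lung RNA was measured in 138 mice, 1 mouse for each of 138 incipient Collaborative Cross lines, which are partly inbred mixtures of 8 founder strains (129S1/SvImJ, A/J, C57BL/6J, CAST/Ei, NOD/LtJ, NZO/H1LtJ, PWK/Ph and WSB/Ei). All mice formed 1 group: each had an intraperitoneal sensitization with 10 µg of Der p 1, a house dust mite allergen, and a challenge with 50 µg on day 15, and lungs were taken on day 18, 72 hours after the challenge. No untreated mice and no founder mice were analysed here, and the ages of the mice are not given in the sources used here, so the values describe how the lines differ after allergen and not what the allergen changed. Because each line is 1 mouse, differences between lines and between animals of the same line cannot be told apart.

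Chemokines are small secreted proteins that draw leukocytes into tissue along a gradient. In allergic lung, eotaxins act through Ccr3 on eosinophils, and the monocyte chemoattractants act mainly through Ccr2 on monocytes, with overlap between the families since Ccl7 also binds Ccr3. Mouse Ccl8 is known mainly as a ligand of Ccr8, a receptor of type 2 T helper cells. In the RefSeq gene table (assembly GRCm38.p6) Ccl2, Ccl7, Ccl11, Ccl12 and Ccl8 follow one another on chromosome 11 with 0 other coding genes between them, Ccl24 lies on chromosome 5, and Ccr3 and Ccr2 lie on chromosome 9.

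The promoters of Ccl8 and Ccl12, the end pair of this cluster, are shown because they are the chemokine genes here whose promoters the RefSeq table given holds. Each line gives the 250 bases before the gene's start on the plus strand, from RefSeq with build GRCm38.p6, at chr11:82114935-82115184 for Ccl8 and chr11:82101595-82101844 for Ccl12. Capitals mark the TATA box letters (TATAAA).
Ccl8: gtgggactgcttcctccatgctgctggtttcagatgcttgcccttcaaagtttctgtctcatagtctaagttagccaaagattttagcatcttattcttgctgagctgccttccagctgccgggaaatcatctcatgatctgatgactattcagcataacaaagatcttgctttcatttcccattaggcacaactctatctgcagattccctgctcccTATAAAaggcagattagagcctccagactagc
Ccl12: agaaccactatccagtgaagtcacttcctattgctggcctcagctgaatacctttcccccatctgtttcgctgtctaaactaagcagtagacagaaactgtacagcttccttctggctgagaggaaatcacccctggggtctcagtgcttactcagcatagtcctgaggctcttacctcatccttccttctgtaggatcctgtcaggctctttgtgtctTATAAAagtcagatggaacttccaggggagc
TATAAA began 32 bases before the start of Ccl8 and 31 bases before that of Ccl12, and 13% of 27025 mouse promoters of this length hold it on either strand. On both strands, neither window held a STAT6 motif (TTC, 4 free bases, GAA; in 5.86% of all promoters) or TGANTCA (AP-1, 6.87%). Neither held an NF-kB motif (GGG, 2 free bases, TTTCC; 1.40%) or an interferon response element (GAAA, 2 free bases, GAAA; 3.04%).

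Values are the authors' deposited log2 levels, and a probe counts as detected in a mouse when the scanner's detection p is under 0.05. Of the 11 probes, 9 were detected in at least 14 mice and entered the fits, and these 9 are the probes of the 6 ligands. The number of arrays, 1 per mouse, limits the precision. Probe numbers 1 and 2 stand for the brighter and the dimmer probe of a gene on average, and levels of different probes are not compared.

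The eotaxins differed widely between lungs. Ccl11 probe 1 (ILMN_2647757) read 5.64 in the lowest mouse, 8.68 at the median and 11.7 in the highest (SD 1.39, n = 138), and was detected in all but 2 mice. From the 5th to the 95th percentile of mice it spanned 23.3-fold, and 35.9-fold on neqc values, which are the scanner intensities with another background correction. Ccl11 probe 2 (ILMN_2862179) read 5.47, 7.42 and 10.4 (SD 0.99), an 8.15-fold span, and was detected in all but 1 mouse. The mice below the 5th percentile of probe 1 all belonged to a set of 19 mice, described further on, where the probes disagreed. In that set the median was 6.23 on probe 1, against 8.88 in the other mice, and 7.96 on probe 2, against 7.41. The span of probe 1 thus holds this disagreement too. Both Ccl11 probes were highest in line OR1427 and second in OR2291. Ccl24 (ILMN_1225406), the eotaxin made largely by macrophages, read 5.38, 6.49 and 10.5 (SD 1.18), undetected in 19 mice. Its 5th percentile lay among the undetected mice, so its span, 11.1-fold on the deposited and 19.8-fold on neqc values, is taken from the array's floor. Lines OR5087 (10.5), OR5513 (10.4) and OR1427 (10.2) stood at its top.

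The monocyte chemoattractants fell into wide and narrow spreads. Ccl8 (ILMN_1238886) was detected in all 138 mice and read 6.06, 9.45 and 11.9 (SD 1.31), a span of 16.7-fold. Ccl7 read 5.57, 7.74 and 10.2 on probe 1 (ILMN_2771176, SD 1.05, all but 2 mice detected) and 5.27, 7.6 and 10.9 on probe 2 (ILMN_2835117, SD 1.28, all but 5 mice). Ccl12 probe 1 (ILMN_3161805) was detected in all 138 mice and read 5.93, 7.17 and 9.10 (SD 0.69), a span of 4.57-fold. Ccl12 probe 2, undetected in 41 mice, had an SD of 1.24 and a span of 13.1-fold, taken from the array's floor. Ccl2 (ILMN_1245710), the classical ligand of Ccr2, was detected in 46 of the 138 mice and read 4.87, 5.53 and 7.66 (SD 0.41), so most of its values lie near the floor of the array. Its single high mouse, OR291 at 7.66, was also the highest for Ccl7 probe 1, and the next Ccl2 value was 6.77. Of all 24450 probes that passed the detection filter 2.19% had an SD over 1, and 6 of the 9 chemokine probes did.

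Among 138 lungs, 2 were high for every ligand on the brighter probes. Lines OR1427 and OR2291 each reached the tenth highest value or more for all 6 ligands on the brighter probe, and OR5087 and OR5370 did so for 5 ligands. Ties at that value count as reached, so 14 mice did so for Ccl8, among them OR2291 and OR5087 at that value (10.9), 11 for Ccl11 and 10 for each of the other ligands. On the dimmer probes OR1427 and OR2291 read 10.4 and 10.1 for Ccl11 and 8.87 and 9.26 for Ccl12, again high. On Ccl7 probe 2 they read only 7.88 and 8.07, against a median of 7.6 and a highest reading of 10.9. Line OR1234 had the lowest reading of Ccl8, of Ccl7 probe 2 and of Ccr3.

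**Figure D1:**
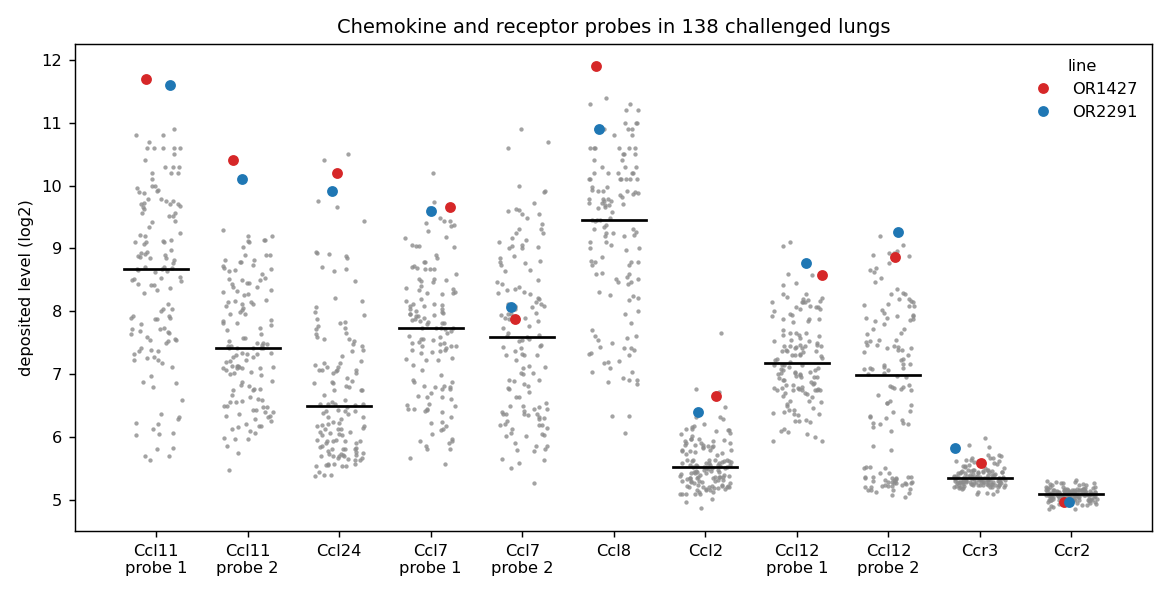
Deposited log2 level (vertical axis) of the 11 probes in 138 mice, 1 point per mouse, with black lines at the medians and the lines OR1427 (red) and OR2291 (blue) marked. The 6 ligands spread over several log2 units, except Ccl2 near the floor, while Ccr3 and Ccr2 stay in a narrow band; Ccl12 probe 2 shows a separate low band of 41 mice.

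The receptors were barely measured. Ccr3 (ILMN_2680290) was detected in 5 mice and read 5.09, 5.35 and 5.99, highest in OR4410. Ccr2 (ILMN_1226563) was detected in 0 of 138 mice and read 4.85, 5.10 and 5.32, which is a level not above background and not a statement that the gene was silent. A further probe (ILMN_1222795) is listed as CMKBR2, which the RefSeq table gives as an older name of Ccr2, and by the naming rule it is not among the 11. It was undetected in 31 mice and read 5.05 in OR1234, 6.14 at the median and 7.52 in OR1427 (SD 0.58). In limma fits over all genes, described further on, the CMKBR2 level rose by 0.23 ± 0.05 log2 (SE) per SD of Ccl12 probe 1 (adjusted p = 4.81e-05), by 0.22 ± 0.05 per SD of Ccl7 probe 1 (0.000131) and by 0.21 ± 0.05 per SD of Ccl8 (0.000378). Its slope on Ccl2 itself was 0.11 ± 0.05 (adjusted p = 0.141).

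The probes of the same gene disagreed in some mice, and they did so in bands. For Ccl11 the difference between probe 1 and probe 2 fell into 2 separated levels, with 19 mice around -1.46 log2 and all the others around 1.44. In line OR4078, for example, probe 1 read 6.23 and probe 2 read 8.67, whereas in OR3467 they read 9.51 and 7.13. Within the larger part the probes ran together (Pearson r = 0.934, Spearman rho = 0.934, permutation p = 1e-05, the smallest 100000 draws can give, and r = 0.929 without the 2 farthest mice). Within the 19 mice they also ran together (r = 0.841, rho = 0.899, permutation p = 1e-05, r = 0.838 without 2 mice), at another offset. These parts are defined by the difference itself, so the values describe the bands and are no test.

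For Ccl12 the disagreement lay in mice where 1 probe was not detected. Probe 2 (ILMN_2771766) was the only one of the 9 kept probes with 2 separated levels of its own, 41 mice around 5.28 and 97 mice around 7.45, as had 5.75% of all 24450 kept probes. It was detected in 97 mice, while probe 1 was detected in all 138. Among the 97 mice of the upper level, the Ccl12 probes had r = 0.883 (rho = 0.874, permutation p = 1e-05, 0.871 without the 2 farthest mice). In the 41 mice of the lower level probe 2 was at background, so no correlation is given there. The levels are defined by probe 2 itself, so this too is a description. In line OR896 probe 1 read 9.04, its second highest value, and probe 2 read 5.04, its lowest. For Ccl7 the difference ranged from -4.16 in OR3612 (6.44 and 10.6) to 1.78 in OR1427 without 2 separated levels, and 28 mice lay beyond 1 log2 on each side.

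**Figure D2:**
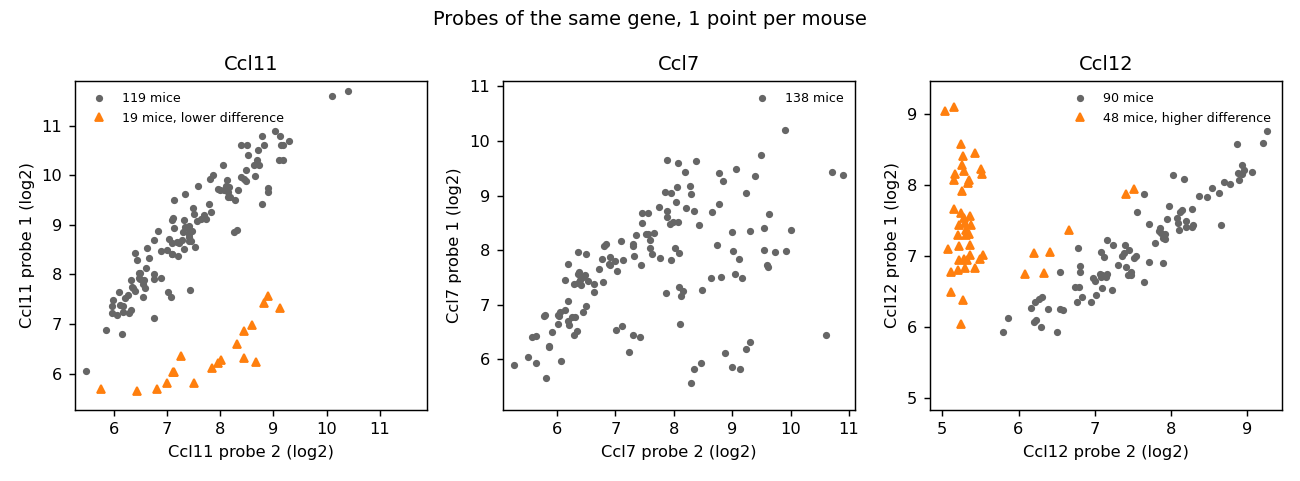
Level of probe 1 (vertical axis, log2) against probe 2 (horizontal axis, log2) of Ccl11, Ccl7 and Ccl12, 1 point per mouse; orange triangles are the smaller part where the difference has 2 separated levels. Ccl11 shows 2 parallel bands, the smaller of 19 mice, Ccl7 a spread to the right of a main band, and Ccl12 a column of mice in which probe 2 stays near 5.28 whatever probe 1 reads.

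Genes of chromosome 11 were called more often than others in the fits on these probe differences, and made up most calls for Ccl11 and Ccl12 but not for Ccl7. Every gene was fitted with limma on the difference per SD, and genes with a Benjamini-Hochberg adjusted p under 0.05 over all 16616 genes tested are called. For Ccl11, 68 genes rose (0.409%) and 73 fell (0.439%), 0.849% in all. Of the 1065 tested genes on chromosome 11, 10.7% were called, against 8 of 11789 on other chromosomes (0.0679%), and the 30 genes with the strongest statistics all lay on chromosome 11. Called genes of chromosome 11 included Psmb6, a proteasome subunit (0.74 log2 per SD), the chemokine Ccl5 (0.46) and the amine oxidase Aoc3 (-0.53). For Ccl12, 76 genes rose (0.457%) and 100 fell (0.602%), 1.06% in all, with 11.2% of chromosome 11 genes called and 36 genes elsewhere (0.305%), again with 30 of 30 on chromosome 11. For Ccl7, 193 genes rose (1.16%) and 69 fell (0.415%), 1.58% in all, 77 on chromosome 11 (7.23%) and 138 elsewhere (1.17%), with 28 of the top 30 on chromosome 11. Along the gene order of chromosome 11 the called genes lay closer to the chemokines than genes in general, at a median of 200 coding genes from Ccl11, 190.5 from Ccl12 and 206 from Ccl7, against 400 for all tested genes of the chromosome. These fits were added after the disagreement was seen, and what separates the bands was not tested.

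**Figure D3:**
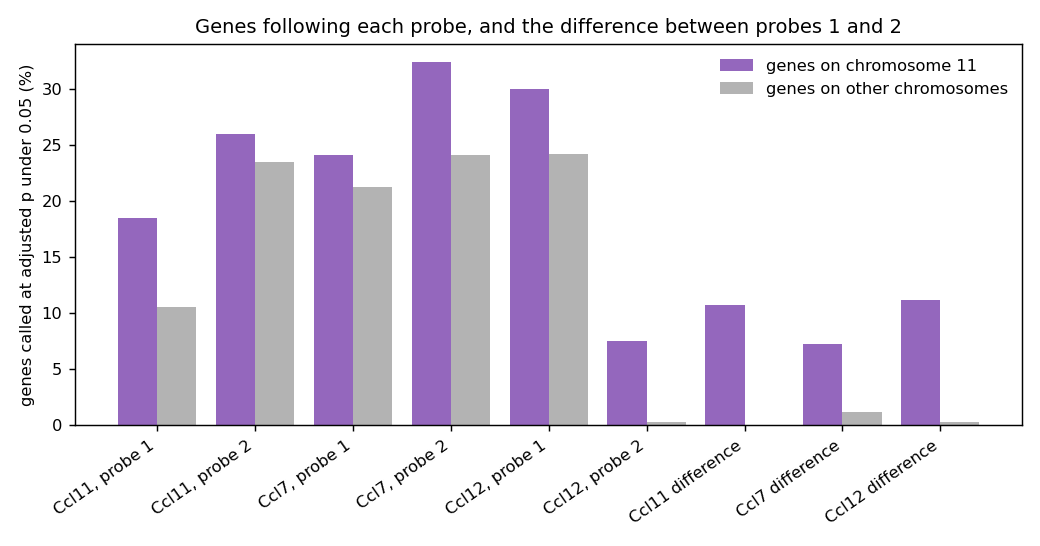
Percent of tested genes called at adjusted p under 0.05 (vertical axis) on chromosome 11 (purple) and on all other chromosomes (grey), for fits on each probe of Ccl11, Ccl7 and Ccl12 and on the differences between their probes. The share called is higher on chromosome 11 for the 3 differences and for Ccl12 probe 2, for example 10.7% against 0.0679% for the Ccl11 difference, while Ccl11 probe 2, with 26% against 23.5%, is nearly even.

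On the brighter probes the ligands correlated positively over mice, to unequal degrees. On the brighter probes all 15 pairs, of 55 among the 11 probes, correlated above 0, from 0.237 to 0.733 with a median of 0.447. Among pairs of kept probes of different genes, 1 was below 0 over all mice, Ccl7 probe 2 with Ccl12 probe 2 (r = -0.23, rho = -0.20, permutation p = 0.00762, -0.23 without 2 mice). That value pools the 2 levels of Ccl12 probe 2. Within its upper level the same pair had r = 0.415 (rho = 0.440, n = 97, permutation p = 3e-05, 0.397 without 2 mice). The median of Ccl7 probe 2 was 7.02 in the upper level and 8.80 in the lower level, where Ccl12 probe 2 was at background. Adjusted p-values are those of the fit of all genes on the first gene of the pair. Ccl11 and Ccl8 were the closest (r = 0.733, rho = 0.725, permutation p = 1e-05, adjusted p = 1.2e-20), with r = 0.716 without the 2 farthest mice and 0.795 and 0.676 in the lower and upper 69 mice by the number in the sample title. Ccl7 and Ccl12 followed (r = 0.658, rho = 0.659, permutation p = 1e-05, adjusted p = 1.74e-14), with 0.668 without 2 mice and 0.655 and 0.664 in these sets of 69. The eotaxins Ccl11 and Ccl24 had r = 0.537 (rho = 0.530, permutation p = 1e-05, adjusted p = 1.8e-08), with 0.517 without 2 mice and 0.593 and 0.498 in these sets of 69. On the brighter probe, Ccl11 had its highest r with Ccl8, while Ccl24 had nearly equal r with Ccl11 (0.537) and Ccl8 (0.536). On Ccl11 probe 2 the order was not the same, with r of 0.608 with Ccl8, 0.605 with Ccl24 and 0.619 with Ccl7 probe 1. Whether these values differ was not tested.

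The weakest pairs both held Ccl12 probe 1. Ccl11 and Ccl12 had r = 0.237 (rho = 0.310, permutation p = 0.00551, adjusted p = 0.0489), with 0.206 without 2 mice, and among the 69 mice with the higher title numbers r = 0.213 no longer passed (permutation p = 0.079). The limma call for this pair was also lost with neqc values (adjusted p = 0.0776), without the detection filter (0.0796) and over all kept probes (0.0549). Ccl2 and Ccl12 had r = 0.279 (rho = 0.260, permutation p = 0.000880, adjusted p = 0.0160), with 0.301 without 2 mice and 0.134 among those 69 mice (permutation p = 0.275). The probe used moved these values: with Ccl11 probe 2, r was 0.522 with Ccl12, 0.619 with Ccl7 probe 1 and 0.266 with Ccl2, where probe 1 gave 0.237, 0.327 and 0.574. Ccl12 probe 2 has 2 levels, and within its upper level r with Ccl2 was 0.697 (rho = 0.734, n = 97, permutation p = 1e-05, 0.677 without 2 mice). Ccr3, though detected in 5 mice, had r = 0.255 with Ccl11 probe 1 (rho = 0.239), 0.508 with Ccl11 probe 2 (rho = 0.466), 0.467 with Ccl24 (rho = 0.321), 0.404 with Ccl12 probe 1 (rho = 0.335) and 0.119 with Ccl2 (rho = 0.0303). Most of these Ccr3 readings are background, and the values are given as a description.

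**Figure D4:**
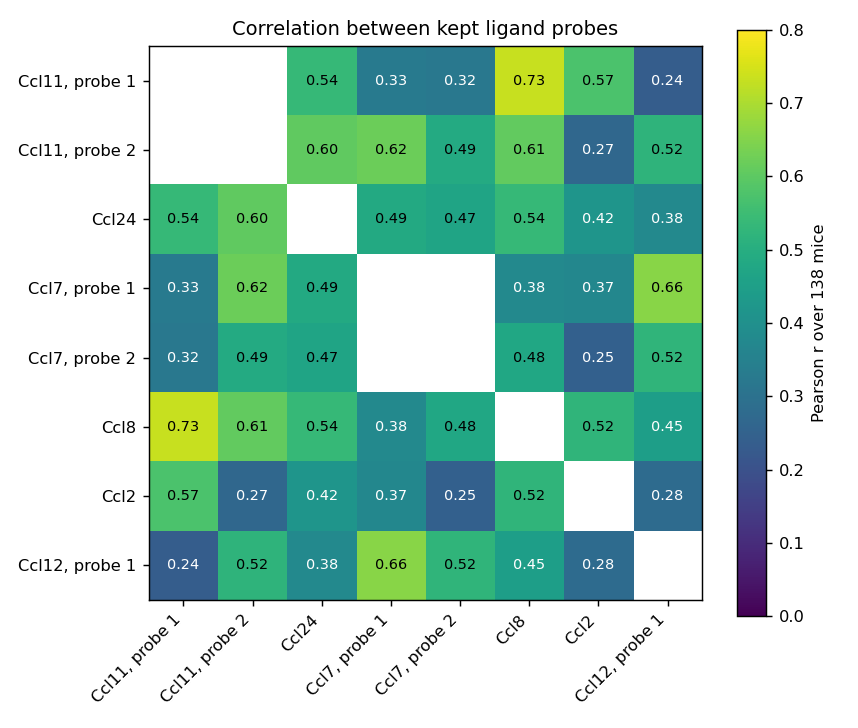
Pearson r over 138 mice between 8 kept probes of the 6 ligands; colour and number give r, and pairs of the same gene and Ccl12 probe 2, which has 2 separated levels, are left out. Ccl11 probe 1 with Ccl8 (0.73) is the highest and Ccl11 probe 1 with Ccl12 probe 1 (0.24) the lowest.

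To describe the lung around each chemokine, every other gene was fitted on its level with limma, and slopes are in log2 per SD of the chemokine with their SE (n = 138). Rose and fell mean an adjusted p under 0.05 over all genes. Lung RNA was bulk RNA, so fewer cells of a type and less RNA per cell cannot be told apart. The lists of genes (8 functions, 12 cell types) are counted without the 8 chemokine and receptor genes. Some genes named below were undetected in most mice, so most of their readings lie near background. Among them, Il6 was detected in 21 mice, Alox15 in 27, Il5 in 43, Ccr8 and Pdcd1lg2 in 47 and Tnf in 61.

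High Ccl11 went with mucous cell, alternatively activated macrophage and eosinophil genes. On probe 1, 800 genes rose (4.81%) and 850 fell (5.12%), 9.93% of 16616 (954 genes without OR5118 and OR1427, the mice farthest from its median), and on probe 2, 1751 rose (10.5%) and 1836 fell (11%), 21.6% in all. All 10 tested mucous genes rose on either probe (median slope 0.45 and 0.48, against -0.0042 and -0.0044 over all genes). Clca1, a secreted protease of goblet cells, rose by 0.81 ± 0.17 on probe 1 (adjusted p = 0.000337) and by 1.06 ± 0.16 on probe 2. The gel-forming mucin Muc5ac rose by 0.59 ± 0.13 and 0.73 ± 0.13, and the anion exchanger Slc26a4 by 0.70 ± 0.10 and 0.97 ± 0.08.

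Macrophage and eosinophil genes followed Ccl11 on both probes. All 8 genes of alternative macrophage activation rose, led by Arg1, the arginase of these cells (0.72 ± 0.11 on probe 1, 1.12 ± 0.08 on probe 2), and including the chitinase-like Chil3 (0.37 ± 0.08 and 0.53 ± 0.07). Of 7 eosinophil genes 5 rose on either probe, among them Rnase2a, an eosinophil ribonuclease (0.66 ± 0.11 and 1.04 ± 0.08), while Epx, Prg3 and Siglecf had no kept probe. The type 2 cytokine Il4 rose by 0.30 ± 0.04 and 0.36 ± 0.04, and Ccl17, which draws type 2 T helper cells, by 0.27 ± 0.06 and 0.39 ± 0.06. Pon1, a paraoxonase, fell by 0.30 ± 0.07 and 0.45 ± 0.06.

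Other leaders of the Ccl11 fit were tied to the probe. Psmb6 rose by 0.61 ± 0.11 on probe 1 (adjusted p = 4.91e-05) but had a slope of 0.05 ± 0.12 on probe 2 (0.81). The carboxypeptidase Cpd and Cd300lg, an endothelial receptor, fell by 0.36 ± 0.07 and 0.31 ± 0.09 on probe 1 and had slopes of -0.06 ± 0.07 and -0.02 ± 0.09 on probe 2. All 3 lie on chromosome 11. The genes most like probe 1 over 138 mice were Mgl2 (r = 0.610), Ccl9 (0.558), Il4 (0.542) and Alox15 (0.520), all on chromosome 11, and Slc26a4 (0.511), while those most like probe 2 were Arg1 (0.751), Rnase2a (0.737), Slc26a4 (0.714), Fcgr2b (0.692) and Mrc1 (0.692), none on chromosome 11.

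Ccl24 was followed by type 2 genes and by genes of NF-kB inflammation. With it 1902 genes rose (11.4%) and 1674 fell (10.1%), 21.5% in all. Arg1 rose by 1.04 ± 0.09 (adjusted p = 2.7e-18), Fxyd4, a regulator of ion transport, by 0.90 ± 0.09, Rnase2a by 0.84 ± 0.10, Slc26a4 by 0.84 ± 0.09 and Clca1 by 0.75 ± 0.17. Il4 rose by 0.38 ± 0.03 (2.39e-18) and Prg2, the eosinophil major basic protein, by 0.51 ± 0.08. Counts of risers were 8 of 10 mucous genes (median slope 0.37), 8 of 8 alternative macrophage genes (0.32), 5 of 7 eosinophil genes (0.32) and 8 of 10 genes of NF-kB inflammation (0.16), against a median of -0.0018 over all genes and 11.4% of all genes rising. Pon1 fell by 0.46 ± 0.06 and Bex2 by 0.45 ± 0.06. The genes most like Ccl24 were Batf3 (r = 0.710), a transcription factor of dendritic cells, Pdcd1lg2 (0.703), which encodes PD-L2, Il4 (0.701), Arg1 (0.698) and Il4i1 (0.691), an amino acid oxidase induced by interleukin 4.

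Ccl8 was followed by mucous and alternatively activated macrophage genes. With it 1651 genes rose (9.94%) and 1861 fell (11.2%), 21.1% in all. All 10 mucous genes rose (median slope 0.57, against -0.0042 over all genes), with Clca1 at 1.00 ± 0.16 (adjusted p = 2.56e-07), Muc5ac at 0.75 ± 0.12 and the trefoil peptide Tff2 at 0.70 ± 0.13. All 8 alternative macrophage genes rose, with Arg1 at 0.96 ± 0.10, Chil4 at 0.54 ± 0.08, Retnla at 0.36 ± 0.05 and the mannose receptor Mrc1 at 0.27 ± 0.04. The genes most like Ccl8 were Ccl9 (r = 0.724), another CC chemokine, Mgl2 (0.671), a lectin of dendritic cells and macrophages, Rnase2a (0.648), Arg1 (0.646) and Cd163 (0.633), a haemoglobin scavenger receptor of macrophages. Pon1 fell by 0.38 ± 0.07. Some interferon targets and monocyte genes also rose with Ccl8, among them Cxcl9 (0.55 ± 0.08), Cxcl10 (0.41 ± 0.07), Isg15 (0.41 ± 0.08) and Adgre1 (0.31 ± 0.04). Others, such as Ido1 (0.08 ± 0.08), Ifit3 (0.16 ± 0.06) and Cx3cr1 (0.002 ± 0.044), were not called.

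Ccl7 was followed by inflammatory genes beside the type 2 genes. With probe 1, 1641 genes rose (9.88%) and 1492 fell (8.98%), 18.9% in all, and with probe 2, 1960 (11.8%) and 1848 (11.1%), 22.9% in all. Arg1 rose by 0.93 ± 0.10 (adjusted p = 4.61e-13), Timp1, an inhibitor of metalloproteinases, by 0.67 ± 0.07 (9.91e-14), the acute phase protein Saa3 by 0.60 ± 0.10 and the neutrophil chemokine Cxcl1 by 0.59 ± 0.07. The cytokine Il6 rose by 0.13 ± 0.02 and Ccl4 by 0.44 ± 0.06. Risers numbered 8 of 10 NF-kB inflammation genes, 8 of 10 monocyte and dendritic genes and 5 of 10 mucous genes on probe 1, with medians of 0.23, 0.15 and 0.25 against -0.0029 over all genes. On probe 2 all 10 mucous genes rose. The endothelial receptor Tek fell by 0.23 ± 0.04. The genes most like probe 1 were Timp1 (r = 0.639), the endothelial adhesion molecule Selp (0.636), Ch25h (0.630), Olfm1 (0.629) and Arg1 (0.623).

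Ccl12 probe 1 was followed by monocyte and interferon genes, some of which also rose with other ligands. With it 1793 genes rose (10.8%) and 1874 fell (11.3%), 22.1% in all. Of 10 monocyte and dendritic genes 9 rose (median slope 0.20, against -0.0040 over all genes), among them the Fc receptor Fcgr1 (0.25 ± 0.03, adjusted p = 7.83e-09) and Cx3cr1, a receptor of patrolling monocytes (0.18 ± 0.04). Of 8 type I interferon targets 7 rose, with Isg15 at 0.42 ± 0.08, and 6 of 9 interferon gamma targets, with Cxcl10 at 0.51 ± 0.06 and Cxcl9 at 0.54 ± 0.08. Trem2, a lipid receptor of macrophages, rose by 0.43 ± 0.05. In contrast 1 of 10 mucous genes rose, and the slope of Clca1 was 0.15 ± 0.18 (adjusted p = 0.590). Among the genes most like it were C1qc (r = 0.721), C1qa (0.666) and C1qb (0.631), which encode the chains of complement C1q, and Aif1 (0.669), a macrophage calcium-binding protein. The intermediate filament gene Synm fell by 0.40 ± 0.06. With Ccl12 probe 2, 77 genes rose and 53 fell (0.782%), of which 80 lay on chromosome 11, and its 5 most similar genes, led by Ccl6 (r = 0.582), all lay there. On probe 2, 1 of 10 monocyte and dendritic genes and 0 of 8 type I interferon targets rose (median slopes 0.08 and 0.17). These probe 2 values pool its 2 levels over 138 mice, 41 of them with probe 2 at background. They cannot show whether the counts above hold where probe 2 is detected, so those counts are given for probe 1 only.

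Ccl2 was followed by inflammatory genes with few mucous or eosinophil genes. With it 843 genes rose (5.07%) and 950 fell (5.72%), 10.8% in all, in a probe detected in 46 mice. Cxcl9 rose by 0.51 ± 0.09 (adjusted p = 1.67e-05) and Cxcl10 by 0.46 ± 0.07, the T cell chemokines induced by interferon gamma, and Saa3 by 0.43 ± 0.11. Il6 rose by 0.12 ± 0.02, Tnf by 0.14 ± 0.02, Ccl3 by 0.24 ± 0.04 and Csf1r, the receptor that macrophages need for survival, by 0.14 ± 0.03. Risers numbered 7 of 10 NF-kB inflammation genes (median slope 0.16), 7 of 9 interferon gamma targets (0.16) and 7 of 10 monocyte and dendritic genes (0.14), against 1 of 10 mucous genes (0.18) and 0 of 7 eosinophil genes (0.08) and a median of -0.0039 over all genes. Clca1 had a slope of 0.22 ± 0.18 (adjusted p = 0.466). Among the genes that fell were 2 of the circadian clock, Nr1d1 (0.31 ± 0.07 lower per SD) and Dbp (0.30 ± 0.10). The genes most like Ccl2 were Cxcl10 (r = 0.50), Mcoln2 (0.495), the eosinophil growth factor Il5 (0.485), Cd180 (0.480) and Il6 (0.466).

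**Figure D5:**
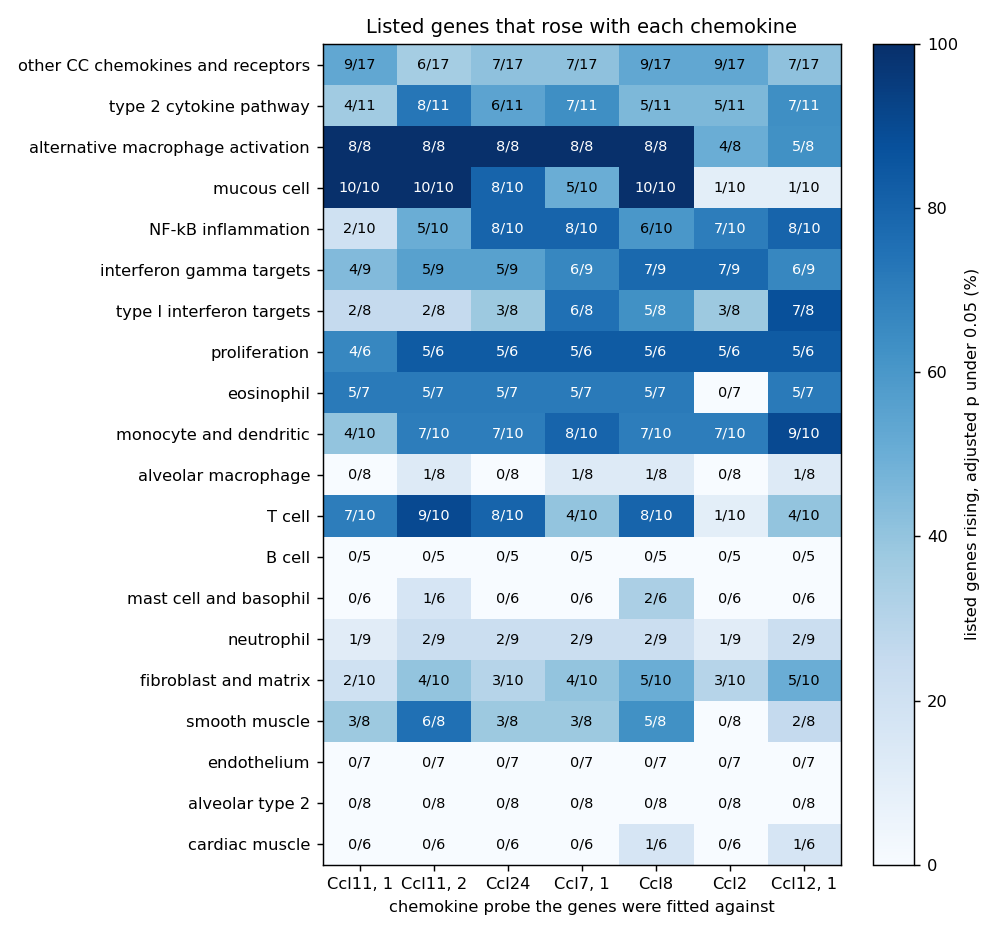
Number of listed genes that rose with each chemokine out of those tested, for 20 lists (rows) and 7 chemokine probes (columns, with the probe number where a gene has more than 1); colour gives the percent. Mucous genes rose in 10 of 10 for both Ccl11 probes and Ccl8, and in 1 of 10 for Ccl2 and Ccl12 probe 1. Monocyte and dendritic genes rose in 9 of 10 for Ccl12 probe 1. Most of them also rose for Ccl7 probe 1 and Ccl2, and some for Ccl8 and Ccl24. The dimmer probes of Ccl7 and Ccl12 are not shown. There, mucous genes rose in 10 of 10 for Ccl7. Monocyte and dendritic genes rose in 1 of 10 for the dimmer Ccl12 probe, whose values pool mice at background.

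Across the rest of the CC family, several genes moved with every ligand. With all 6 ligands on the brighter probe, Ccr8 rose by 0.10 to 0.21, Ccl17 by 0.24 to 0.41, Ccl9 by 0.30 to 0.49, Ccl4 by 0.20 to 0.44, Ccl3 by 0.12 to 0.26 and the atypical receptor Ackr1 by 0.19 to 0.33. Ccr8 is the receptor of mouse Ccl8. Of 17 tested genes of the family, the number that rose was 9 with Ccl11, 7 with Ccl24, 7 with Ccl7, 9 with Ccl8, 9 with Ccl2 and 7 with Ccl12, where 4.81%, 11.4%, 9.88%, 9.94%, 5.07% and 10.8% of all genes rose. Ccl21a, a chemokine of lymphoid tissue, Ccl27a and the receptor-like Ccrl2 fell with Ccl24 (by 0.16 ± 0.05, 0.11 ± 0.04 and 0.11 ± 0.04) and with Ccl8 (by 0.15 ± 0.05, 0.12 ± 0.04 and 0.11 ± 0.04), and Ccl27a fell with Ccl7 and Ccl12 (by 0.14 ± 0.04 and 0.16 ± 0.04). Il4 likewise rose with all 6, by 0.16 to 0.38. No tested B cell gene (0 of 5) was called with any ligand, with median slopes from -0.02 to 0.08.

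A difference between ligands needs its own test, so pairs were put in 1 model and the difference of their partial slopes was tested over 16615 genes. For Ccl8 against Ccl2, 238 genes were more positive with Ccl8 (1.43%) and 0.686% of genes with Ccl2, 2.12% in all. The first group held 9 of 10 mucous genes, 7 of 8 alternative macrophage genes and 4 of 7 eosinophil genes, against that 1.43% of all genes. The difference for Clca1 was 1.64 ± 0.32 (adjusted p = 0.00103), with partial slopes of 1.22 on Ccl8 and -0.42 on Ccl2. It was 1.26 ± 0.19 for Rnase2a (5.81e-06), 1.15 ± 0.20 for Arg1 and 1.08 ± 0.25 for Muc5ac. Genes more positive with Ccl2 included Cx3cl1, a membrane-bound chemokine (-0.35 ± 0.10), Ccn1, a matrix protein (-0.41 ± 0.12), and Fam102b (-0.77 ± 0.20). With the eosinophil marker score in the model, 10 genes were called in place of 352. The count was 234 on neqc values and 616 with normal scores. Ccl8 was detected in all 138 mice and Ccl2 in 46, so a slope per SD of Ccl2 rests largely on readings near background. How much of these differences comes from that was not tested.

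For Ccl12 probe 1 against Ccl2, 68 genes were more positive with Ccl12 (0.409%) and 81 with Ccl2 (0.488%), 0.897% in all. Here too the slopes on Ccl2 rest largely on readings near background. The first included C1qc (0.30 ± 0.06, adjusted p = 0.00120), C1qb (0.30 ± 0.07), Trem2 (0.34 ± 0.07) and the complement regulator Cfi (0.61 ± 0.14). The second was led by chromosome 11 genes such as the nucleotide sugar transporter Slc35b1 (-1.13 ± 0.19), Cavin1 (-0.85 ± 0.19), Ccl5 (-0.53 ± 0.12) and Ccl6 (-0.41 ± 0.10), and 71 of the called genes lay on chromosome 11 (6.67% of its genes, against 0.534% elsewhere). With Ccl12 probe 2 in the model, its 2 levels pooled, each of these 8 differences changed sign. That of Cavin1 alone was called, at 1.13 ± 0.27.

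For the eotaxins, Ccl11 probe 1 against Ccl24, 404 genes were more positive with Ccl11 (2.43%) and 735 with Ccl24 (4.42%), 6.86% in all. The first were led by chromosome 11 genes, Psmb6 (1.05 ± 0.23, adjusted p = 0.00263) and the elongation factor Supt4a (0.91 ± 0.11), and the second included Arg1 (-0.69 ± 0.19), Saa3 (-0.65 ± 0.21) and Prg2 (-0.47 ± 0.16). With Ccl11 probe 2, 16 and 49 genes were called (0.391%), Arg1 differed by 0.20 ± 0.17 (0.591) and Prg2 by -0.05 ± 0.16 (0.916). Then 25 of 812 tested genes on chromosome 5, where Ccl24 lies, were called (3.08%), against 17 of 12041 on other chromosomes (0.141%). The calls between the eotaxins thus depended on the probe that stood for Ccl11.

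Eosinophil genes rose with 5 of the ligands (none of 7 with Ccl2), so the fits were repeated with the mean z value of the eosinophil genes as a covariate. Alveolar type 2 genes, which mark lung tissue, were at a mean of 9.91 to 11.6 log2 in every mouse and the eosinophil genes at 6.96 to 9.90. With the covariate, 9 of 10 mucous genes and 7 of 8 alternative macrophage genes rose with Ccl8, where 13.2% of all genes were called and 5.43% rose. With Ccl11 probe 1 the counts were 1 of 10 and 2 of 8 (2.71% called, 0.867% rising). They were 1 of 10 and 3 of 8 with Ccl24 (6.91% called, 4.12% rising). With Ccl7 probe 1 they were 1 of 10 and 4 of 8 (8.19% called, 4.35% rising). For Ccl11 probe 1, 13.9% of chromosome 11 genes were then called against 1.38% of other genes, and for Ccl8 21.4% against 12.8%. The covariate was not fitted with Ccl11 probe 2, so the counts for Ccl11 hold for probe 1 only. With Ccl12 probe 1, 8 of 10 monocyte and dendritic genes rose, where 18.4% of all genes were called and 8.65% rose. Whether the ligands differ in this respect was not tested. Heart muscle RNA varied between samples, with a mean level of 6.12 to 10.1 for 6 cardiac genes, of which Actc1 rose with Ccl8 and Ccl12 and none was called with the other 4 ligands. With cardiac and smooth muscle scores as covariates, 7 of the slopes and differences of followed genes lost their call and 1 changed sign, that of Clca1 on Ccl12.

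The number in the sample title, whose meaning the labels do not give, was tested as a possible batch. None of the 9 chemokine probes followed it (limma, adjusted p = 1.0 for each), and 0 of 24450 probes were called, with 815 at an unadjusted p under 0.05 on the deposited values and 810 on neqc values. The lowest unadjusted p among the chemokine probes was 0.0612, for Ccl2, at -0.07 ± 0.03 log2 per SD of the number.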

How the data were processed

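Lung RNA of 138 mice was hybridised to Illumina WG6v2 arrays, 1 array per mouse. The deposited log2 values were quantile normalized by the authors with RMA in R 2.9.2 after GenomeStudio, per the submitters' processing notes. The scanner table holds each probe's intensity and detection p-value as deposited, and each deposited column matched its own array best (r of 0.9959 to 0.99996 over 138 arrays). Arrays detected 19075 to 21472 probes.

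Here the deposited log2 values were the main values, with neqc (limma 3.58.1, R 4.3.3, offset 16) on the scanner intensities as an alternative. Of 45281 probes, 24450 passed a filter of 14 or more mice detected (detection p under 0.05). Each of the 16617 genes left was read from its brightest such probe on average. Symbols were updated through the RefSeq table: 22864 probes had a current symbol, 11916 a synonym, and 10501 kept the file's name. limma (lmFit, eBayes) fitted each gene on each chemokine's level, with Benjamini-Hochberg adjustment over all genes and a threshold of 0.05. Correlations used 100000 permutations, two-sided. On simulated data for these 16617 genes, a planted slope of 0.3 SD was recovered in 53% and 0.5 SD in 100% of genes, with 8 false calls.

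The chemokines and gene lists were chosen with earlier results of these data known. Genes named are drawn from the 8 largest positive and 4 largest negative slopes per fit, or the 6 largest differences in each direction per pair, among called genes detected in at least 69 mice, from the 5 genes with the highest r per chemokine, and from the gene lists; among these, examples were chosen after their values were seen. The p-values measure the spread between lines. Alternatives covered the normalization, filters, probe choice, normal scores, left-out mice, the lower and upper title numbers, and eosinophil and muscle scores.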

Additional observations from a re-analysis of the deposited data

How the results depend on the processing

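Among the recomputed correlations and counts of genes, 20 counts moved by over 1.5 times and 2 correlations lost their call, and the rest kept direction and call. Among the 69 mice with the higher title numbers, the correlation of Ccl12 was 0.213 with Ccl11 and 0.134 with Ccl2. With the eosinophil score, counts were 450 for Ccl11, 1148 for Ccl24, 1361 for Ccl7, 2191 for Ccl8, 448 for Ccl11 minus Ccl24 and 10 for Ccl8 minus Ccl2. Without the 2 farthest mice they were 954 for Ccl11 and 565 for Ccl11 minus Ccl24. With normal scores they were 1089 for Ccl2, 345 for Ccl11 minus Ccl24, 616 for Ccl8 minus Ccl2 and 243 for Ccl12 minus Ccl2. The other probe gave 3587 for Ccl11, 130 for Ccl12 and 65 for Ccl11 minus Ccl24. Without the detection filter Ccl11 minus Ccl24 gave 750, neqc gave 234 for Ccl8 minus Ccl2, and all kept probes gave 224 for Ccl12 minus Ccl2. Over probes detected in every mouse, fewer genes were tested and the probe differences gave 73 for Ccl11 and 97 for Ccl12. The cause of the other shifts was not tested.

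Among slopes and differences of followed genes, calls were lost by 42 with the eosinophil score, 16 on the other probe of a ligand, 3 on the other probe in a pair, 11 without the detection filter, 9 with normal scores, 7 with neqc, 7 with muscle scores, 6 without the 2 farthest mice, 5 with the title number, 3 over all kept probes, 3 over probes detected in every mouse and 2 with the number of detected probes. Slopes that changed sign on the other probe were Cfi (-0.13) and Cavin1 (0.50) for Ccl12. For Ccl11 minus Ccl24 they were Psmb6 (-0.20), Arg1 (0.20), Cavin1 (-0.0863), Cfi (0.23) and Ccl5 (-0.17). For Ccl12 minus Ccl2 they were Cfi (-0.53), Trem2 (-0.25), C1qb (-0.24), C1qc (-0.20), Fcgr2b (-0.45), Slc35b1 (0.36), Cavin1 (1.13), Psmb6 (0.96), Ccl5 (0.18) and Ccl6 (0.36). The slope of Clca1 on Ccl12 was -0.21 with the eosinophil score and -0.0291 with muscle scores, and Slc35b1 in Ccl12 minus Ccl2 was 0.0162 over its probe detected in every mouse. The comparison of Ccr3 with Ccr2 was not run because neither had a kept probe, and slide as a block was not run because slides are not given in the sources used here. No paired analysis was possible because all mice form 1 group. Ccl2, detected in 46 mice, and Ccr3, in 5, are limited by signal over background.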
